A study of Mus musculus with 24 samples.

Results

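The subject is the first maturation step of mouse bone marrow eosinophils in steady state, stage II against stage I, described across all genes. The samples were chosen by their titles, as the 3 steady state libraries of stage II and the 3 of stage I, 6 of the 24 RNA-seq libraries of the series. All groups were wild type mice of strain C57BL6, and their age was not given in the sources used here. The stage II and stage I groups in steady state received no cytokine. The groups under IL-33 came from mice given 400 ng of recombinant murine IL-33 into the peritoneum every day for 7 days. Their stage II and stage I libraries were used for the same step and for its difference between conditions. Levels of stages III and IV of steady state are given only to place named genes, while all 24 libraries of the 8 groups entered the fit and set its estimate of the spread. Each library was pooled from 3 mice, so a value is the mean of a pool and not of a mouse. Per the labels' protocols, cells bearing CD45R, NK1.1, CD90.2 or Ly6G were removed with magnetic beads. Cell sorting then used Siglec-F, CD117, CD55, CD29, F4/80, CD200R3 and Pir-A/B as antigens, at a purity the submitters put at 95% or more. The gate that parts stage II from stage I was not given in the sources used here, so the genes of these antigens are no independent finding between the stages.

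Eosinophils arise in the bone marrow from granulocyte progenitors under IL-5, and fill their secondary granules with eosinophil peroxidase, major basic proteins and ribonucleases while they still divide. Later forms stop dividing, condense the nucleus and take on the receptors, integrins and motile machinery that carry a granulocyte out of the marrow and into tissue. IL-33 is an alarmin that raises eosinophil numbers, largely through cells that make IL-5.

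Gene counts ranged from 8335138 to 11582872 in the 6 libraries, and 11897 to 13226 genes had at least 1 count. Levels are gene counts brought to a common library total (CPM), after scaling with TMM factors, the trimmed means of M values. Eosinophil genes were abundant in both stages. Epx, eosinophil peroxidase, had 14133, 12759 and 9689 CPM in stage II, against 13878, 15948 and 12454 CPM in stage I. Prg2, major basic protein, had 17266, 13812 and 11827 CPM in stage II, against 15147, 13693 and 10988 CPM in stage I. Libraries that share the number 3 stood apart from the others in both stages. Jun, an AP-1 subunit of the immediate early response, had 1724, 1369 and 4768 CPM in stage II, against 1717, 1869 and 5016 CPM in stage I. Atf3, a stress-induced transcription factor, had 23.2, 52 and 663 CPM in stage II, against 4.07, 17.3 and 165 CPM in stage I. Ddx3y, a helicase gene of the Y chromosome, had 79.3, 57.2 and 223 CPM in stage II, against 58.6, 75.4 and 174 CPM in stage I. In all 3 genes the highest value of each stage was that of library 3. Without the 4 steady state libraries numbered 3, 535 genes were called in the comparison below, 365 of which are among its 649. Results are given with and without single libraries where these decide a call.

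Markers of other marrow cells moved with the stages. The summed level of 17 neutrophil markers was 21314 to 33134 CPM in stage II, against 3100.3 to 11996 CPM in stage I, beside 27682 to 41016 CPM in stage II and 29414 to 37219 CPM in stage I for 7 eosinophil granule proteins. The summed level of 20 monocyte and macrophage markers was 1895 to 3010.0 CPM in stage II, against 815 to 968 CPM in stage I. In bulk RNA, more cells of a type and more RNA per cell cannot be told apart. The part of these markers in the receptor, adhesion, oxidase, eicosanoid, protease, lysosomal and actin results below was not tested.

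Of 12743 genes tested, 649 (5.09%) differed between stage II and stage I at an edgeR adjusted p under 0.05. More of them were higher in stage II, 479 genes or 3.76% of those tested, than lower, 170 genes or 1.33%. Among the called genes 373 were over 2-fold higher and 153 over 2-fold lower. The median log2 fold change was 1.47 in the higher and -2.32 in the lower, against -0.01 over all genes tested. By level, 53 were higher and 77 lower of 3808 genes whose larger stage mean was under 10 CPM. Of 6419 genes from 10 to 100 CPM, 194 were higher and 65 lower, and of 2516 genes of at least 100 CPM, 232 were higher and 28 lower. In 609 of the 649 genes the 3 libraries of one stage all lay above the 3 of the other, as was the case in 21.6% of all genes tested. The count depended on single libraries: it was 309 without stage I library 1, 280 without stage I library 2 and 341 without stage II library 3, and between 580 and 688 without each of the others. A replicate block, which the libraries' deviations allow, gave 1088 called genes, and the 6 libraries fitted alone gave 25. Scaling by library totals in place of TMM moved the median of all genes to -0.16 and gave 294 genes higher and 232 lower, so the excess of rises was smaller on that scale.

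**Figure D1:**
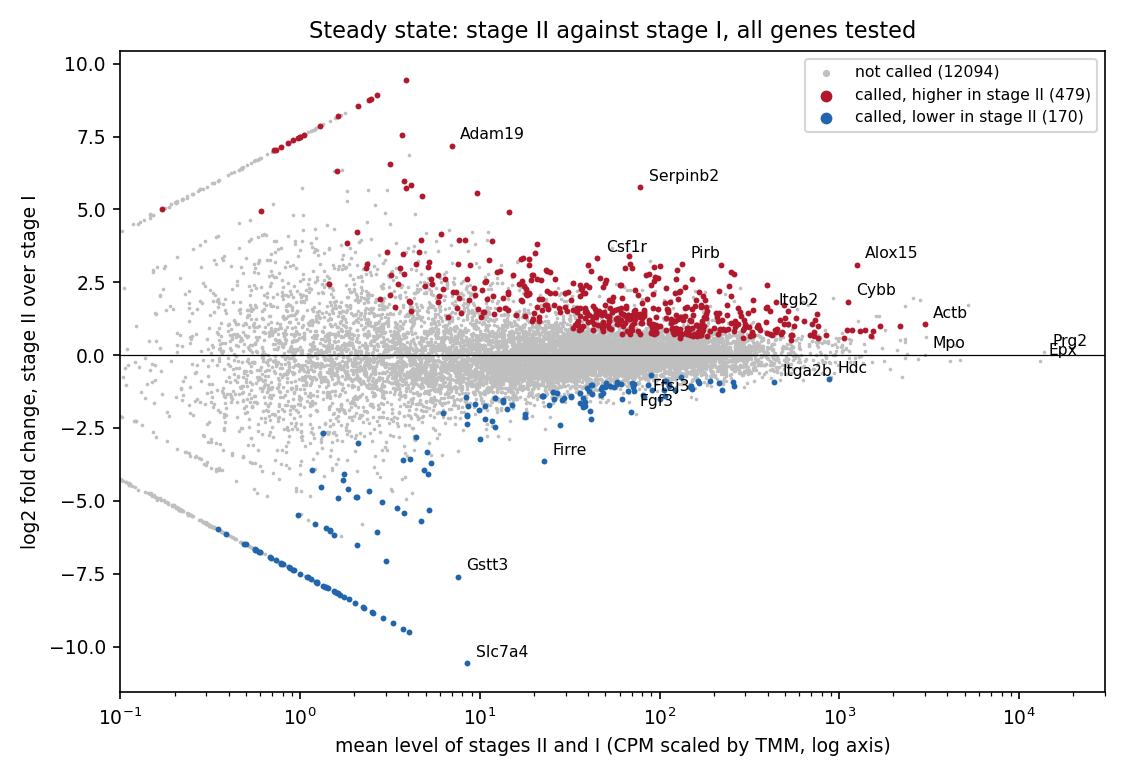
Each point is 1 of the 12743 genes tested; the horizontal axis is the mean level of both stages in CPM on a log axis and the vertical axis the log2 fold change of stage II over stage I. Red points are the 479 genes called higher in stage II, blue points the 170 called lower and grey points the 12094 not called; most blue points over 2 log2 units lie at low levels, while Epx and Prg2 sit near 0 at the right.

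A small set of 15 genes, of 178 called genes followed through 19 other settings, passed the threshold in each of these settings, including the fit of the 6 libraries alone. They were Alox15, Anxa2, Ccr1, Csf1r, Gsn, Hmox1, Id2, Itgb2, Lgals3, Myo1f, Padi4, Pirb and Tgfbi among the rises, and Gstt3 and Slc7a4 among the falls. Alox15, the arachidonate 15-lipoxygenase that makes anti-inflammatory and airway lipid mediators, had 1959.6, 1637 and 3111 CPM in stage II, against 287, 233 and 258 CPM in stage I. Alox15 rose by 3.11 log2 units (SE 0.30, edgeR adjusted p = 1.79e-06). Csf1r, the receptor of macrophage colony-stimulating factor, had 82.8, 50.8 and 112 CPM in stage II, against 7.44, 5.71 and 11.5 CPM in stage I. Csf1r rose by 3.32 log2 units (SE 0.33, edgeR adjusted p = 2.55e-06). In both genes every stage II library lay well above every stage I library. Id2, an inhibitor of E proteins that restrains their DNA binding, had 269, 218 and 296 CPM in stage II, against 40.9, 28.7 and 58.1 CPM in stage I. Id2 rose by 2.62 log2 units (SE 0.28, edgeR adjusted p = 4.65e-06). Lgals3, the galactose-binding lectin galectin-3, had 349.9, 375 and 628 CPM in stage II, against 63.2, 50.7 and 83.3 CPM in stage I. Lgals3 rose by 2.78 log2 units (SE 0.28, edgeR adjusted p = 2.55e-06). Anxa2, a calcium-dependent binder of membranes, had 357, 374 and 477 CPM in stage II, against 92.5, 86.6 and 115 CPM in stage I. Anxa2 rose by 2.04 log2 units (SE 0.22, edgeR adjusted p = 4.65e-06). The stage I values of these 3 genes never reached the lowest stage II value. Tgfbi, an extracellular matrix protein made by many myeloid cells, was 7.98-fold higher in stage II, and Hmox1, the heme-degrading oxygenase, 7.49-fold.

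The ranking by size took only called genes whose stages did not overlap and that averaged at least 10 CPM in a stage. Its largest rise was that of Adam19, a membrane-bound metalloprotease-disintegrin (chr11:46055992-46147343, plus strand, GRCm38). It had 6.73, 17.8 and 17.3 CPM in stage II, against 0, 0 and 0.225 CPM in stage I (log2 fold change 7.19, SE 0.61, edgeR adjusted p = 3.59e-07), which is 432 counts over the 3 stage II libraries and 3 over the 3 stage I libraries, a 167-fold ratio with a 95% counting interval of 56.9 to 815. Serpinb2, an intracellular serpin known from activated macrophages, had 57.6, 69.6 and 334 CPM in stage II, against 0.0992, 1.7 and 6.36 CPM in stage I. Serpinb2 rose by 5.77 log2 units (SE 0.83, edgeR adjusted p = 0.000325). Its stage II library 3 lay far above the other 2, and all 3 lay above stage I. Bmx, a Tec family tyrosine kinase, had 6.73, 8.24 and 41.8 CPM in stage II, against 0.298, 0.256 and 0.599 CPM in stage I. Bmx rose by 5.56 log2 units (edgeR adjusted p = 0.0027). Rap1gap2, which switches off the GTPase Rap1, had 23.6, 19.2 and 41.5 CPM in stage II, against 0, 0 and 2.62 CPM in stage I. Rap1gap2 rose by 4.90 log2 units (edgeR adjusted p = 0.000246). S100a6, a calcium-binding protein, had 72.2, 99.2 and 200.2 CPM in stage II, against 6.75, 8.26 and 19.7 CPM in stage I. S100a6 rose by 3.41 log2 units (SE 0.42, edgeR adjusted p = 2.97e-05). The lack of overlap between the stages in these 5 genes was set by the rule of the ranking. All 5 kept their call whichever of the 6 libraries was left out. The other 10 of the 15 largest rises, all at an edgeR adjusted p of 0.0389 or less, are given with their log2 fold changes. They were Naaladl1, an aminopeptidase (4.15), Lpl, lipoprotein lipase (3.94), Nfatc2, a calcium-regulated transcription factor (3.94), and Ms4a4a, a tetraspan membrane protein of macrophages (3.93). They also held Lilra6 (3.82), Gsap, an activator of gamma-secretase (3.50), March1, a ubiquitin ligase of antigen-presentation molecules (3.33), Csf1r, Ccr3 (3.31) and Ly86, the partner of the receptor RP105 (3.30). Of these, Lpl, Nfatc2 and March1 lost the call without stage I library 1 (adjusted p = 0.102, 0.105 and 0.128) and without stage I library 2 (adjusted p = 0.141, 0.11 and 0.102). Without stage II library 2, Nfatc2 and March1 lost it (adjusted p = 0.0705 and 0.0516), and without stage II library 3 Lpl and March1 did (adjusted p = 0.118 and 0.123).

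**Figure D2:**
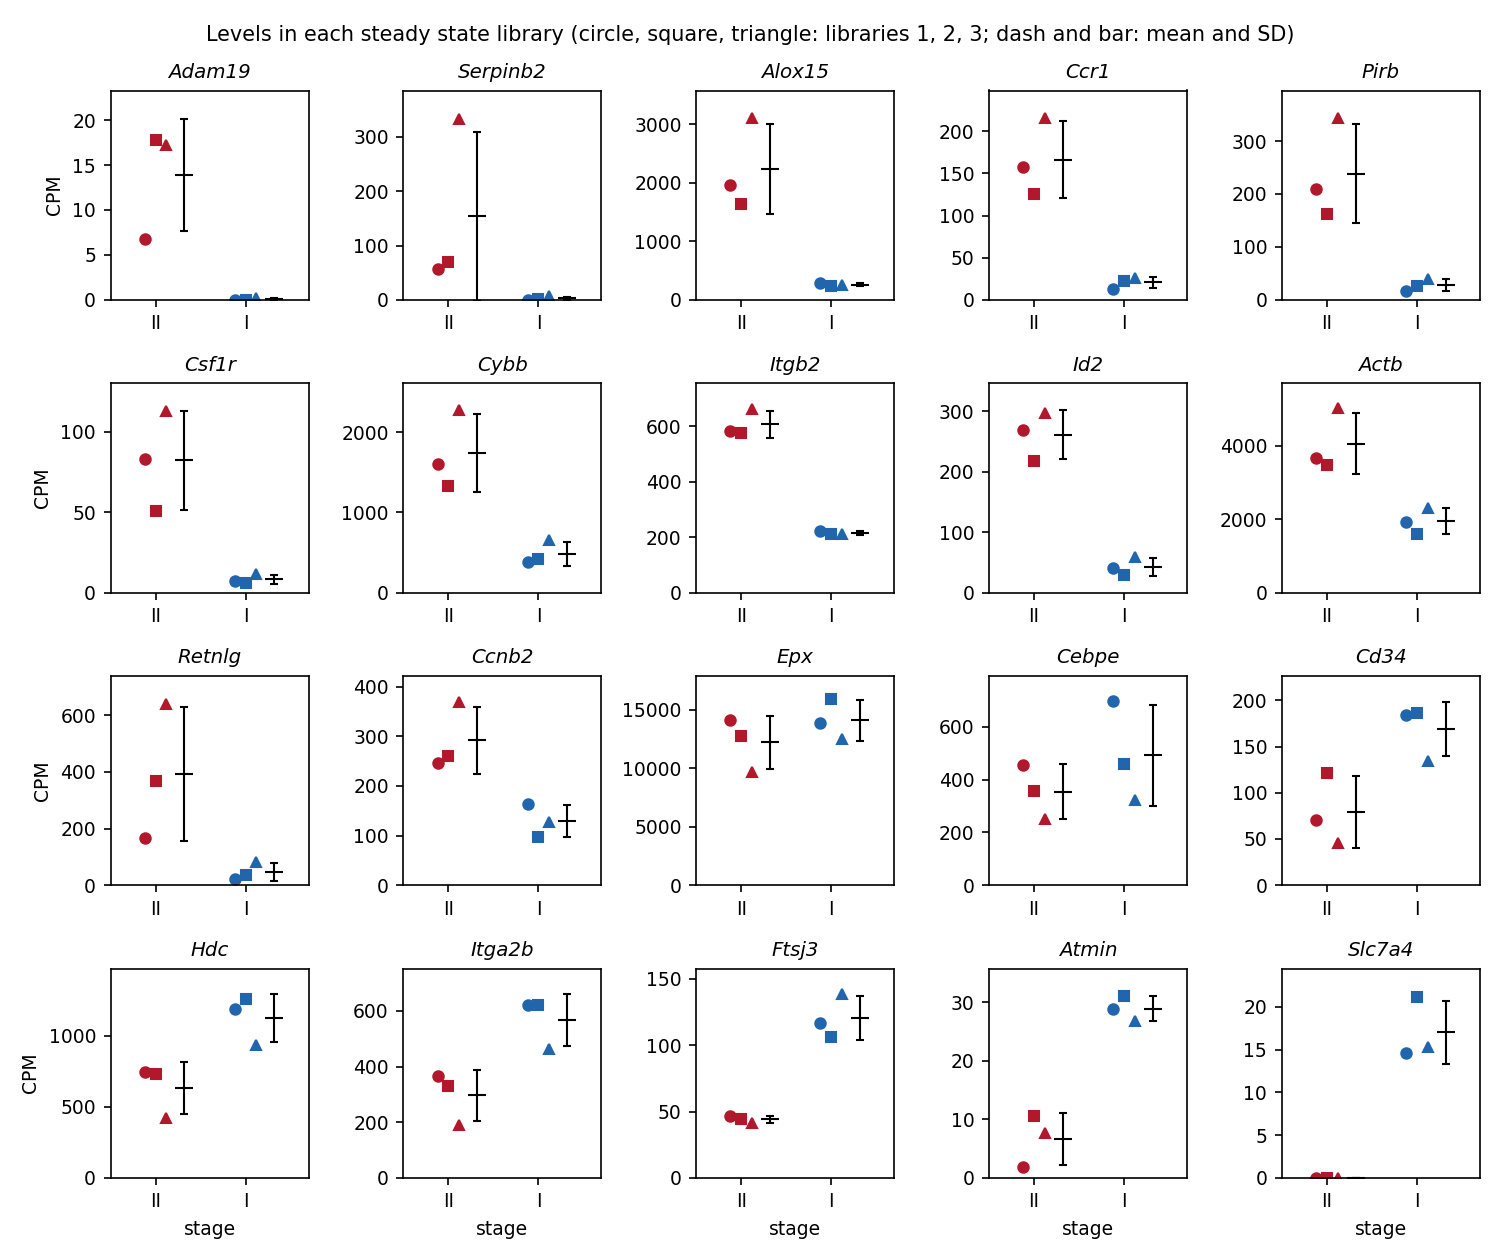
Level in CPM of 20 genes in each steady state library, stage II on the left in red and stage I on the right in blue; circles, squares and triangles are libraries 1, 2 and 3, and the dash with its bar is the mean with 1 SD of 3 libraries. Alox15, Ccr1, Pirb, Csf1r, Cybb, Itgb2, Id2 and Actb are higher in every stage II library, Epx and Cebpe overlap between the stages, and Hdc, Itga2b, Ftsj3, Atmin and Slc7a4 are lower in every stage II library.

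Paired and inhibitory immune receptors set the activation threshold of myeloid cells through immunoreceptor tyrosine motifs. Of 39 members tested, 14 were called higher and 1 lower in stage II, against 3.76% and 1.33% of all genes. A positive log2 fold change was found in 36, and the median log2 fold change was 1.78, against -0.01 over all genes. Pirb, the inhibitory paired immunoglobulin-like receptor, had 210.1, 162 and 343 CPM in stage II, against 17, 26.6 and 38.9 CPM in stage I. Pirb rose by 3.11 log2 units (SE 0.35, edgeR adjusted p = 6.12e-06). Lilra6, of the activating Pir-A type, had 30.2, 29.6 and 57 CPM in stage II, against 0.496, 2.3 and 5.24 CPM in stage I. Lilra6 rose by 3.82 log2 units (SE 0.51, edgeR adjusted p = 8.81e-05). Pirb, Lilra6 and Pira2 are near-identical copies whose reads may be split between them, so their separate values are uncertain, and Pir-A/B is an antigen of the sort. Cd300lf, an inhibitory lipid-binding receptor, had 75.9, 54.9 and 110.5 CPM in stage II, against 4.17, 7.16 and 27.2 CPM in stage I. Cd300lf rose by 2.63 log2 units (SE 0.54, edgeR adjusted p = 0.00559). Siglece, an inhibitory sialic acid-binding lectin, had 75.2, 49.4 and 59.1 CPM in stage II, against 9.03, 8.61 and 19.8 CPM in stage I. Siglece rose by 2.29 log2 units (SE 0.47, edgeR adjusted p = 0.00584). Sirpa, the inhibitory receptor for CD47, had 255, 283 and 249 CPM in stage II, against 96.8, 122 and 77.4 CPM in stage I. Sirpa rose by 1.41 log2 units (SE 0.28, edgeR adjusted p = 0.00407). Each of these 3 receptors was higher in every stage II library than in any of stage I. Tyrobp, the DAP12 adaptor of the activating receptors, rose 2.08-fold (edgeR adjusted p = 0.00419), Clec4a3, an inhibitory lectin receptor, 6.64-fold (adjusted p = 0.00588), and Pilrb1, an activating receptor with close copies, 3.42-fold (adjusted p = 0.000149). The member called lower, Klrb1b, an inhibitory lectin receptor of NK cells, had 0 counts over stage II and 72 over stage I, at least 20.7-fold lower when the stage at 0 is given 3 counts as a floor. Klrb1b lost its call without any 1 library other than stage I library 2, with adjusted p between 0.0576 and 0.143. Of the 15 called members 10 were called whichever library was left out, and with the replicate block 24 members were called.

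Promoter windows of RefSeq (GRCm38.p6), from 250 bases before to 50 after each gene's RefSeq start, were searched for 5 sequence motifs. The motif GAGGAAGT, searched on both strands as the PU.1 site, stood in the windows of 6.68% of 374 genes called higher, 0% of 143 called lower and 3.42% of the 10049 genes tested that have a window. The motif AGATAA, searched on both strands as the GATA site, stood in 6.42% of the genes called higher, 13.99% of those called lower and 6.81% of all. The whole window of Pirb (chr7:3720333-3720632, minus strand) and stretches of 38 bases around the PU.1 motif in Lilra6 (chr7:3915629-3915666, minus strand), Itgb7 (chr15:102231913-102231950, minus strand), Ptgs1 (chr2:36230387-36230424, plus strand), Ctss (chr3:95526769-95526806, plus strand) and Cd300lf (chr11:115133970-115134007, minus strand), chosen because they hold the motif in a called gene, read 5′ to 3′ along the gene's strand with the motif in capitals:
Pirb: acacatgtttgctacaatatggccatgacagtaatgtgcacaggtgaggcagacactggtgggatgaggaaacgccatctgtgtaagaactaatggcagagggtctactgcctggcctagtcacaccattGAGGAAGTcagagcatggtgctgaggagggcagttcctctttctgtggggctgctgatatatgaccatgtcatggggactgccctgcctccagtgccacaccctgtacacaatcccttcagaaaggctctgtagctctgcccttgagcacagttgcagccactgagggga
Lilra6: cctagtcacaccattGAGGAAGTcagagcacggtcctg
Itgb7: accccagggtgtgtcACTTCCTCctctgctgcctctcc
Ptgs1: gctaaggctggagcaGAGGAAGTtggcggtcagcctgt
Ctss: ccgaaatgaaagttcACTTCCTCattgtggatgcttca
Cd300lf: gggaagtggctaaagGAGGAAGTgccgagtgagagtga
Over the 38 bases around the motif, Lilra6 and Pirb were identical at 36. The motif begins 120 bases before the start in Pirb and 150 bases before it in Lilra6, and at the first transcribed base in Cd300lf. Among genes called lower, stretches of 36 bases hold the GATA motif in Fgf3 (chr7:144838482-144838517, plus strand) and Spns2 (chr11:72475126-72475161, minus strand), again with the motif in capitals:
Fgf3: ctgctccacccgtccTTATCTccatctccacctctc
Spns2: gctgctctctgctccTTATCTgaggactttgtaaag
In both the motif reads as its reverse complement on the gene's strand, and in both the RefSeq start lies inside the gene as GENCODE bounds it. The mean G and C content of the windows was 59.5% in the genes called higher, 59.8% in those called lower and 60.4% in all. C/EBP motifs (TTGCNNAA) stood in 11.2% of windows called higher, 6.29% called lower and 8.55% of all, and AP-1 motifs (TGANTCA) in 7.49%, 4.90% and 5.11%. Nrf2 motifs (TGACNNNGC) stood in 18.7% of windows called higher, 15.4% called lower and 15.1% of all. These shares are descriptions with no test, and a match is not evidence that a factor binds.

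Chemoattractant receptors rose in 5 of 25 members tested and fell in none, against 3.76% and 1.33% of all genes, and the median over the list was 2.02. Ccr1, a receptor for inflammatory CC chemokines, had 158, 125 and 216 CPM in stage II, against 12.8, 22.8 and 26.4 CPM in stage I. Ccr1 rose by 3.01 log2 units (SE 0.32, edgeR adjusted p = 4.65e-06). Ccr2, the receptor that draws monocytes out of the marrow, had 71.3, 174 and 242 CPM in stage II, against 14.8, 31.1 and 29.3 CPM in stage I. Ccr2 rose by 2.69 log2 units (SE 0.56, edgeR adjusted p = 0.00584). Ccr3, the eotaxin receptor that is the hallmark of mature eosinophils, had 7.61, 35.9 and 49.4 CPM in stage II, against 0.298, 2.13 and 6.66 CPM in stage I. Ccr3 rose by 3.31 log2 units (SE 0.66, edgeR adjusted p = 0.00505). All 3 stage II libraries lay above stage I in each gene, although for Ccr3 stage II library 1 lay close to the highest stage I library. Cysltr1, a receptor of cysteinyl leukotrienes, had 152 counts over stage II and 0 over stage I, at least 58.9-fold higher by the same floor. Cxcr4, which retains granulocytes in the marrow, had 85.1, 72.2 and 96 CPM in stage II, against 46.8, 54.1 and 43 CPM in stage I. Cxcr4 rose by 0.82 log2 units (edgeR adjusted p = 0.0493). Cxcr4 lost its call without any 1 of 5 of the 6 libraries, with adjusted p up to 0.161 without stage II library 3, and Cysltr1 without stage I library 1, 2 or 3 (adjusted p = 0.0736, 0.08 and 0.0553).

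Cytokine receptors were called higher in 5 of 30 members, against 3.76% of all genes, with a median of 0.61. Besides Csf1r these were Il1r2, the decoy receptor of IL-1 (2.35), Il1rap, the shared chain of the IL-1 and IL-33 receptors (1.47), Tgfbr2, the type II TGF-beta receptor (1.73), and Tnfrsf1a, the main TNF receptor (1.39), as log2 fold changes with edgeR adjusted p between 0.0112 and 0.0386. Csf1r was called whichever library was left out, and it was the only one of the 5 that kept its call without stage I library 1 (adjusted p of the others 0.0598 to 0.174). Without stage I library 2, Il1r2, Il1rap and Tnfrsf1a lost theirs (adjusted p 0.08 to 0.121), and without stage II library 3 Il1rap and Tnfrsf1a did (adjusted p = 0.232 and 0.0928). Il1rap and Tnfrsf1a also missed it without stage I library 3 (adjusted p = 0.0515 and 0.076), and Tgfbr2 without stage II library 2 (adjusted p = 0.0751). Il5ra, the alpha chain of the IL-5 receptor that defines the eosinophil lineage, had 163.1, 119 and 159 CPM in stage II, against 174, 301 and 241 CPM in stage I. Il5ra differed by -0.70 log2 units (SE 0.31, edgeR adjusted p = 0.21). Every stage II library of Il5ra lay below every stage I library, yet the difference did not pass the threshold.

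Integrins and selectins, the adhesion molecules of leukocyte traffic, were called higher in 7 and lower in 1 of 26 members, against 3.76% and 1.33% of all genes, with a median of 0.28. Itgb2, the common beta chain of the leukocyte integrins, had 581, 574 and 663 CPM in stage II, against 221, 209.3 and 211 CPM in stage I. Itgb2 rose by 1.50 log2 units (SE 0.22, edgeR adjusted p = 0.000297). Itgam, its alpha M partner, had 438.7, 416 and 712 CPM in stage II, against 100.3, 137 and 183.4 CPM in stage I. Itgam rose by 1.90 log2 units (SE 0.38, edgeR adjusted p = 0.00419). Itgal, its alpha L partner, had 63.8, 83 and 106 CPM in stage II, against 30.2, 25.1 and 30.8 CPM in stage I. Itgal rose by 1.55 log2 units (SE 0.26, edgeR adjusted p = 0.000773). The 3 partners were thus all higher in every stage II library. Itgb7, the beta chain of mucosal homing, had 69, 122 and 178 CPM in stage II, against 28.5, 26.2 and 33.5 CPM in stage I. Itgb7 rose by 2.06 log2 units (SE 0.34, edgeR adjusted p = 0.00074). These 4 genes kept their call in each fit with a library left out. Itgb3, the beta chain of platelet and vitronectin receptors (2.15), and Adgre5, the adhesion receptor CD97 (0.88), lost theirs without stage I library 1 (adjusted p = 0.181 and 0.151), without stage I library 2 (adjusted p = 0.102 and 0.141) and without stage II library 3 (adjusted p = 0.291 and 0.14). Itgb3 lost it also without stage I library 3 or stage II library 1 (adjusted p = 0.076 and 0.0602), and Adgre5 without stage II library 2 (adjusted p = 0.0794). Itga2b, the alpha IIb chain known from megakaryocytes and early progenitors, was the member that fell. It had 367, 331 and 191 CPM in stage II, against 621, 622 and 461 CPM in stage I (log2 fold change -0.94, SE 0.27, edgeR adjusted p = 0.0417), and lost the call without stage I library 1 or 2 or stage II library 2 or 3 (adjusted p = 0.134, 0.138, 0.0542 and 0.182).

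All 8 genes on the list of the phagocyte NADPH oxidase, the enzyme of the respiratory burst, had higher values in every stage II library than in any of stage I. Such a separation was seen in this direction in 10.8% of all genes. The list holds the proton channel gene Hvcn1 beside the subunits. Of the 8, 5 were called higher, against 3.76% of all genes. Of the neutrophil markers 15 of 17 were also higher in every stage II library, and of the monocyte markers 10 of 20 were called. Cybb, the catalytic gp91phox chain, had 1609, 1336 and 2280.2 CPM in stage II, against 381, 420.1 and 659 CPM in stage I. Cybb rose by 1.84 log2 units (SE 0.36, edgeR adjusted p = 0.00337). Ncf1, the organizer p47phox, had 899, 885 and 634 CPM in stage II, against 393, 319 and 299 CPM in stage I. Ncf1 rose by 1.26 log2 units (SE 0.23, edgeR adjusted p = 0.00179). Ncf4, the regulator p40phox, had 648, 564 and 728 CPM in stage II, against 297, 251 and 303 CPM in stage I. Ncf4 rose by 1.19 log2 units (SE 0.20, edgeR adjusted p = 0.00074). These 3 kept their call without any 1 library; reads of Ncf1 may be shared with close copies. Rac2, a GTPase of the complex, rose 1.84-fold (edgeR adjusted p = 0.0124), and lost the call without stage I library 2 (adjusted p = 0.0562). Cyba, the p22phox partner of Cybb, had 1027, 862 and 979.9 CPM in stage II, against 846, 602 and 611 CPM in stage I. Cyba differed by 0.48 log2 units (SE 0.23, edgeR adjusted p = 0.258).

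Genes of eicosanoid synthesis were called higher in 4 and lower in 1 of 14 members, against 3.76% and 1.33% of all genes, with Alox15 among the rises. Alox5, which starts leukotriene synthesis, had 394, 378 and 471 CPM in stage II, against 192, 127 and 129.7 CPM in stage I. Alox5 rose by 1.47 log2 units (SE 0.25, edgeR adjusted p = 0.00106). Ptgs1, the constitutive cyclooxygenase, had 157, 124 and 79.7 CPM in stage II, against 48.1, 31.4 and 48.2 CPM in stage I. Ptgs1 rose by 1.50 log2 units (SE 0.26, edgeR adjusted p = 0.00101). Alox5ap, the activating protein of Alox5, had 528, 469 and 573 CPM in stage II, against 351, 356 and 272 CPM in stage I. Alox5ap rose by 0.68 log2 units (edgeR adjusted p = 0.0349). Tbxas1, thromboxane synthase, went the other way, with 75.1, 71.9 and 58 CPM in stage II, against 124, 114 and 94.8 CPM in stage I. Tbxas1 fell by 0.70 log2 units (edgeR adjusted p = 0.0235). In each of these 4 genes the stages did not overlap. Alox5 and Ptgs1 kept their call without any 1 library; Alox5ap kept it only without stage II library 2 (adjusted p otherwise up to 0.122), and Tbxas1 lost it without stage I library 1 or 2 or stage II library 3 (adjusted p = 0.104, 0.08 and 0.115).

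Secreted proteases and their inhibitors were called higher in 7 of 20 members and lower in none, against 3.76% and 1.33% of all genes, with a median of 1.21. Beside Adam19 and Serpinb2 these held Adam8, a shedding metalloprotease of granulocytes, with 181, 133 and 284 CPM in stage II, against 56.9, 47.5 and 53.2 CPM in stage I. Adam8 rose by 1.93 log2 units (SE 0.29, edgeR adjusted p = 0.000297). Slpi, an inhibitor of leukocyte elastase, had 195, 193 and 378 CPM in stage II, against 91.1, 79.7 and 139 CPM in stage I. Slpi rose by 1.31 log2 units (SE 0.25, edgeR adjusted p = 0.00279). Mmp25, a membrane-anchored matrix metalloprotease, had 14.4, 13.8 and 19.1 CPM in stage II, against 2.18, 0.0852 and 3.22 CPM in stage I. Mmp25 rose by 3.09 log2 units (SE 0.69, edgeR adjusted p = 0.0108). Timp2, a metalloprotease inhibitor, rose 2.16-fold (adjusted p = 0.0034). All of these were apart between the stages and robust to leaving out a library. Plaur, the urokinase receptor, rose 4.59-fold (edgeR adjusted p = 0.0408), but not without stage I library 1 or 2 or stage II library 3 (adjusted p = 0.164, 0.16 and 0.252).

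Lysosomal genes were called higher in 8 of 32 members, against 3.76% of all genes, with a median of 0.40. Ctss, the protease cathepsin S of antigen-presenting cells, had 104, 105 and 229.6 CPM in stage II, against 7.34, 27.9 and 30.6 CPM in stage I. Ctss rose by 2.73 log2 units (SE 0.55, edgeR adjusted p = 0.0043). Psap, the precursor of the saposins, had 394, 599 and 775 CPM in stage II, against 191, 203 and 189 CPM in stage I. Psap rose by 1.60 log2 units (SE 0.29, edgeR adjusted p = 0.00197). Both were higher in every stage II library and were called in each fit with a library left out. Ctsb, Ctsc and Ctsd, which are cathepsins, Cd68, a lysosomal membrane protein of phagocytes, and Atp6v1b2, a proton pump subunit, rose 1.61- to 3.08-fold. Of the 8 called, 2 remained without stage I library 1 or 2 and 3 without stage II library 3.

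Actin regulators shape and move the cell cortex. Of 38 members 35 had a positive log2 fold change, 14 were called higher and none lower, against 3.76% and 1.33% of all genes, and the median was 0.63. Actg1, cytoplasmic gamma actin, had 1363, 1057 and 862 CPM in stage II, against 467, 455.6 and 316 CPM in stage I. Actg1 rose by 1.41 log2 units (SE 0.25, edgeR adjusted p = 0.00154). Gsn, the filament-severing gelsolin, had 564, 727 and 796 CPM in stage II, against 186, 159 and 239.9 CPM in stage I. Gsn rose by 1.84 log2 units (SE 0.30, edgeR adjusted p = 0.00074). Lsp1, a leukocyte actin binder, had 180.1, 184 and 326 CPM in stage II, against 39.5, 29.1 and 68.2 CPM in stage I. Lsp1 rose by 2.33 log2 units (SE 0.44, edgeR adjusted p = 0.00255). Stage II libraries were higher without overlap in each. Arpc5, of the branching complex Arp2/3, rose 1.99-fold, Myo1f, a motor of granulocyte migration, 2.83-fold, and Capg, a filament capper, 2.97-fold (edgeR adjusted p = 0.00134, 0.00279 and 0.00134). These 6 genes were called whichever library was left out. Actb, beta actin, had 3673, 3475 and 5008 CPM in stage II, against 1932, 1584 and 2295 CPM in stage I (log2 fold change 1.06, SE 0.24, edgeR adjusted p = 0.0113); without stage I library 2 or stage II library 3 it missed the threshold (adjusted p = 0.0772 and 0.0633). Reads of Actb and Actg1 may be shared between them and with pseudogenes. Of the 14, 8 remained without stage I library 2 and 9 without stage I library 1 or stage II library 3; with the replicate block 21 members were called.

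**Figure D3:**
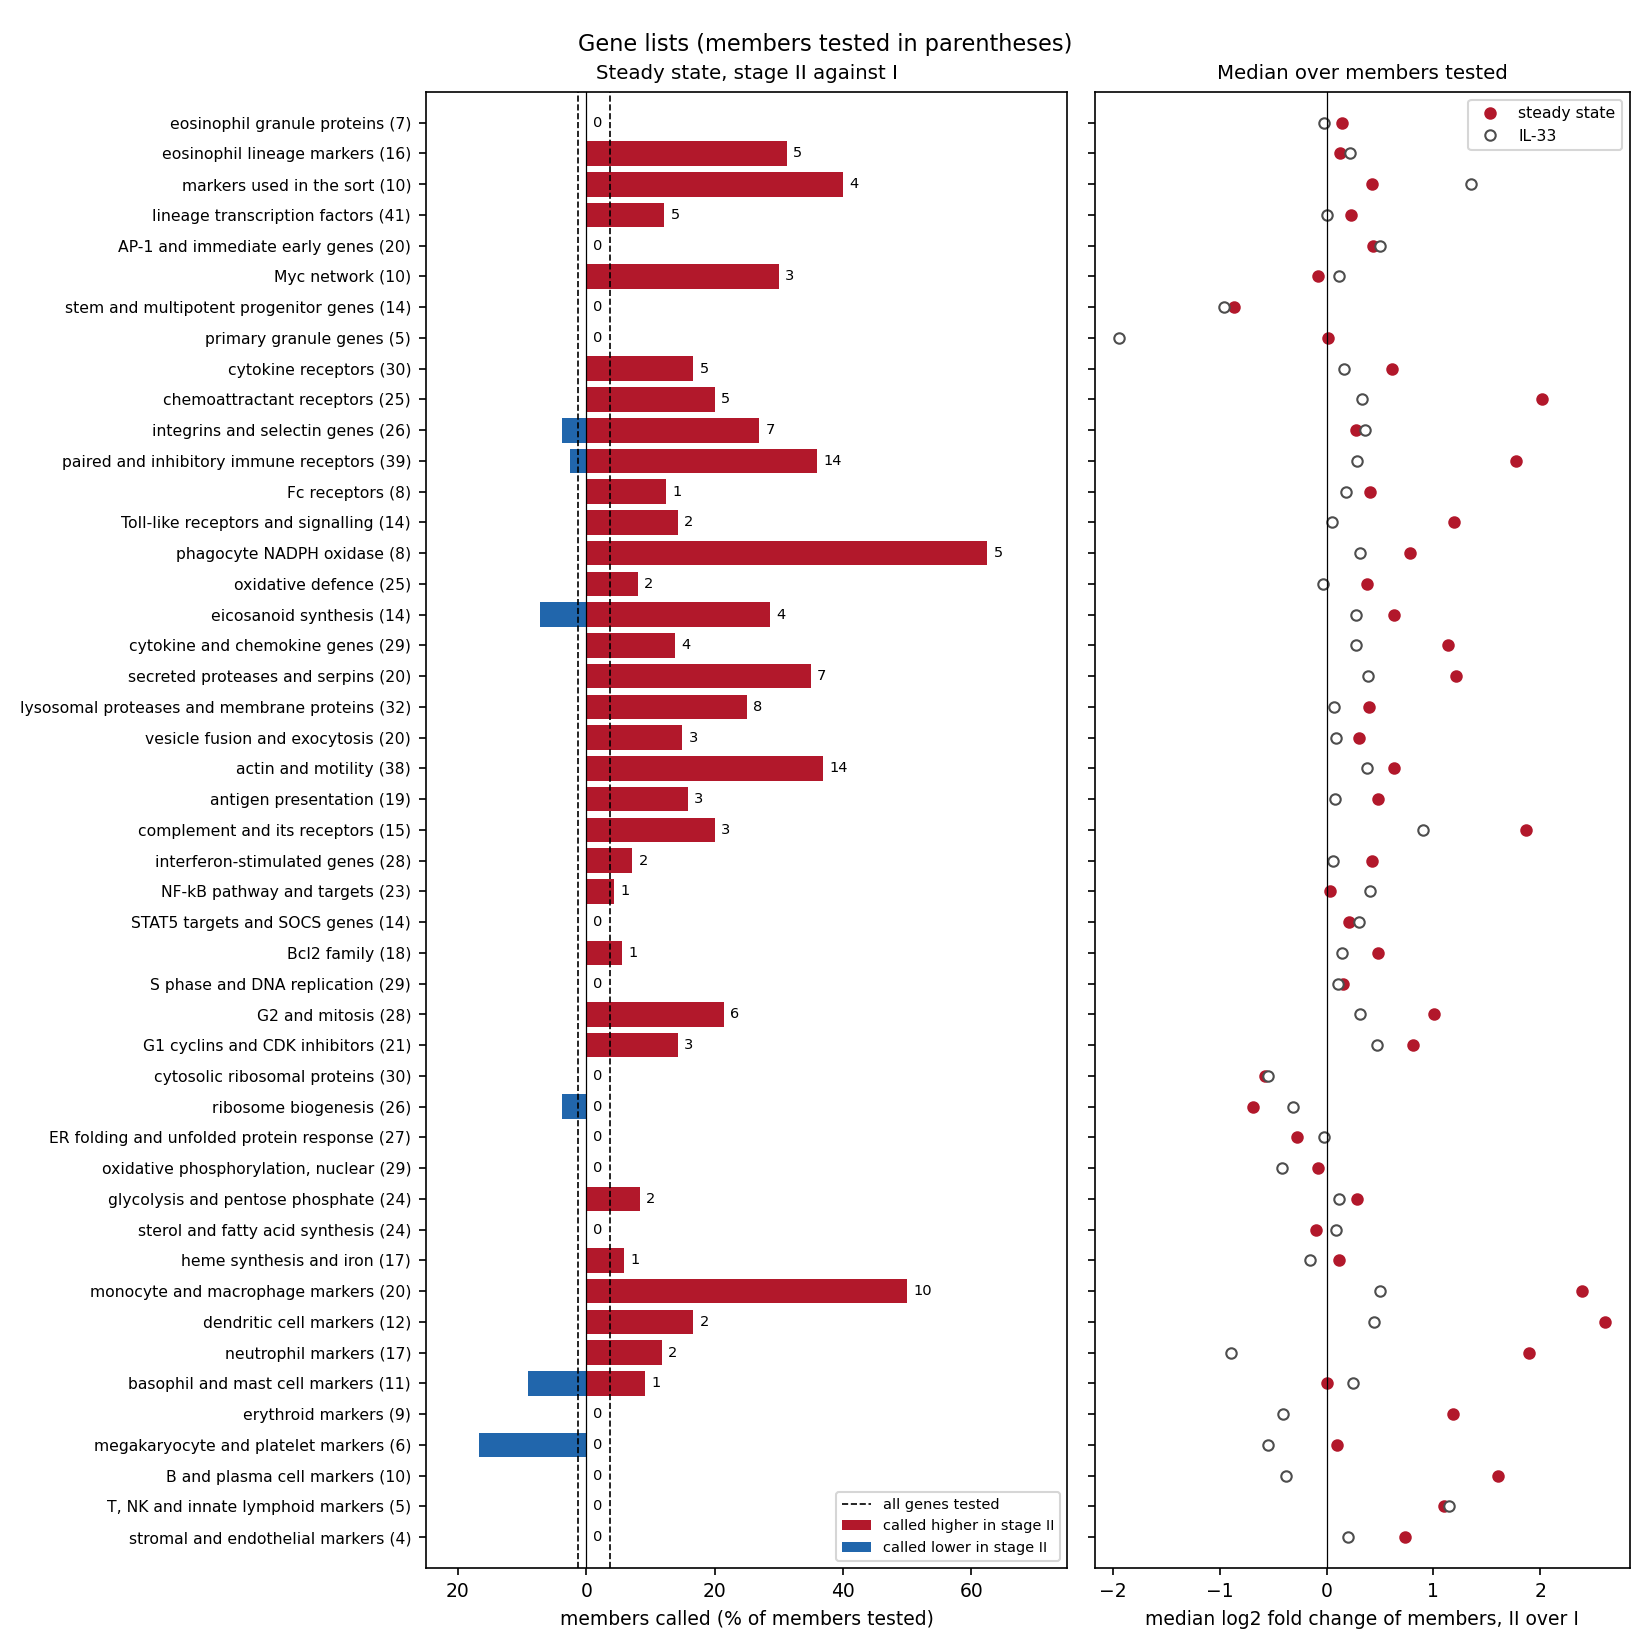
On the left, the share of tested members of each of 47 gene lists that were called higher (red, to the right) or lower (blue, to the left) in stage II in steady state, with the counts called higher printed and dashed lines at the 3.76% and 1.33% of all genes; on the right, the median log2 fold change of stage II over stage I, filled for steady state and open for IL-33. The NADPH oxidase (5 of 8), monocyte markers (10 of 20) and markers used in the sort (4 of 10) extend farthest to the right, and the ribosomal lists have medians below 0 in both conditions.

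Granule proteins of the eosinophil did not pass the threshold. Of 7 members 0 were called, against 5.09% of all genes, with a median of 0.14 that turned to -0.02 with library totals. Epx had a log2 fold change of -0.21 (SE 0.25, edgeR adjusted p = 0.715) and Prg2 of 0.11 (SE 0.26, adjusted p = 0.887). The ribonuclease Ear1, whose family has near-identical copies, had 3545, 2413 and 2259 CPM in stage II, against 2195, 2032 and 1437 CPM in stage I. Ear1 differed by 0.54 log2 units (SE 0.34, edgeR adjusted p = 0.411). A missed threshold does not show equal levels. With 5.09% of all genes called, 0 of 7, like the 0 of 5 that follows, is no result about the list. Primary granule genes were also not called, 0 of 5: Mpo, myeloperoxidase, had 2348, 5199.8 and 1462 CPM in stage II, against 2938, 3388 and 2577 CPM in stage I (log2 fold change 0.02, SE 0.59, edgeR adjusted p = 1), with stage II library 2 highest and stage II library 3 lowest of the 6. Eosinophil lineage markers were called higher in 5 of 16, against 3.76% of all genes. These were Alox15, Pirb, Ccr3, Cd9, a tetraspanin (1.35), and Cd24a, a surface sialoglycoprotein (0.67). Cd24a lost the call without stage I library 1 or 2 or stage II library 3 (adjusted p = 0.148, 0.0511 and 0.146). Of 10 genes of the sort antigens 4 were called higher, namely Pirb, Lilra6, Pira2 and Cd200r3, and none lower, against 3.76% and 1.33% of all genes. Cd200r3, an activating receptor of basophils and mast cells, had 14.6, 2.34 and 9.59 CPM in stage II, against 0, 0.937 and 0.674 CPM in stage I. Cd200r3 rose by 3.95 log2 units (SE 0.66, edgeR adjusted p = 0.000806). Siglecf, the eosinophil lectin, had 394, 314 and 150.2 CPM in stage II, against 307, 448.7 and 165 CPM in stage I. Siglecf differed by -0.10 log2 units (SE 0.35, edgeR adjusted p = 0.922). Adgre1, which encodes F4/80, had 223, 205 and 181 CPM in stage II, against 113, 173 and 131 CPM in stage I. Adgre1 differed by 0.54 log2 units (SE 0.26, edgeR adjusted p = 0.246). The stages overlapped for Siglecf and were apart for Adgre1, which was not called.

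Transcription factors of the myeloid lineages were called higher in 5 of 41 and lower in none, against 3.76% and 1.33% of all genes. The 5 were Id2, Id1 (1.37), a second inhibitor of E proteins, the Ets factors Ets1 (1.25) and Fli1 (0.68), and Irf8 (1.98), which directs monocyte and dendritic fates. Irf8 had 69.9, 85.8 and 140.2 CPM in stage II, against 18.5, 25.8 and 30.8 CPM in stage I. Irf8 rose by 1.98 log2 units (SE 0.52, edgeR adjusted p = 0.0292). It was higher in all 3 stage II libraries, with the highest level in library 3, yet missed the threshold without stage I library 1 or 2 or stage II library 3 (adjusted p = 0.127, 0.0986 and 0.124) and with library totals. Without stage I library 1 or 2, or stage II library 3, 2 of the 5 factors remained in each case. The factors that specify eosinophils did not pass: Gata1 had 171, 144 and 99 CPM in stage II, against 163.2, 176 and 119 CPM in stage I. Gata1 differed by -0.15 log2 units (SE 0.30, edgeR adjusted p = 0.855). Cebpe, the granule gene activator, had 457.1, 356 and 250.2 CPM in stage II, against 699, 457.9 and 322 CPM in stage I. Cebpe differed by -0.48 log2 units (SE 0.28, edgeR adjusted p = 0.377). Spi1, which encodes PU.1, had 370.4, 409 and 332 CPM in stage II, against 355, 296 and 278 CPM in stage I. Spi1 differed by 0.26 log2 units (SE 0.19, edgeR adjusted p = 0.509). The libraries of both stages overlapped for all 3.

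Stem and progenitor genes did not pass the threshold. Of 14 members 0 were called, against 5.09% of all genes, and the median was -0.87, against -0.01 over all genes. With the replicate block 2 members were called, and with limma-voom 4. Cd34, a sialomucin of progenitors, had 70.6, 122 and 45.8 CPM in stage II, against 185, 187 and 135 CPM in stage I. Cd34 differed by -1.09 log2 units (SE 0.39, edgeR adjusted p = 0.113). Kit, the stem cell factor receptor whose protein CD117 was used in the sort, had 119, 134 and 118 CPM in stage II, against 136, 226 and 199 CPM in stage I. Kit differed by -0.60 log2 units (SE 0.57, edgeR adjusted p = 0.622). Every stage II library was below every stage I library for both genes. At an adjusted p of 0.113 and 0.622 neither was called, while Cd34 was called lower with the replicate block (edgeR adjusted p = 0.044), with limma-voom and without stage II library 2.

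Genes of G2 and mitosis had higher values in stage II, and some were called. Of 28 genes of G2 and mitosis all 28 had a positive log2 fold change, with a median of 1.01. Of these, 20 were higher in every stage II library, as were 10.8% of all genes, and 6 were called, against 3.76% of all genes. Ccnb2, a mitotic cyclin, had 246, 259.6 and 369.8 CPM in stage II, against 162.7, 97.6 and 126 CPM in stage I. Ccnb2 rose by 1.18 log2 units (SE 0.25, edgeR adjusted p = 0.00618). Mki67, the proliferation antigen Ki-67, had 315, 246 and 515 CPM in stage II, against 172, 136 and 219 CPM in stage I. Mki67 rose by 1.03 log2 units (SE 0.28, edgeR adjusted p = 0.0328). Ccna2, the cyclin of S phase and G2, had 250.0, 256 and 252 CPM in stage II, against 110.1, 103 and 93.1 CPM in stage I. Ccna2 rose by 1.31 log2 units (SE 0.31, edgeR adjusted p = 0.0152). All stage II values of these 3 were above stage I. The count depended on single libraries: 0 of the 6 remained without stage I library 2, 2 without stage I library 1 or stage II library 3, and with the replicate block 15 members were called. Of 29 replication genes 0 were called, against 5.09% of all genes, with a median of 0.15 that turned to -0.00185 with library totals. Of 21 G1 cyclins and CDK inhibitors 3 were called higher, namely Cdkn2d, E2f2 and Rb1, against 3.76% of all genes, and none lower. Rb1 lost its call without stage I library 1 or stage II library 3 (edgeR adjusted p = 0.077 and 0.081). Of 10 genes of the Myc network 3 were called higher, namely Mxd1, Mxd3 and Mxi1, and none lower, against 3.76% and 1.33% of all genes. Of these 3, 1 remained without stage I library 1 or 2 or stage II library 3, and 2 without stage II library 1. Cdkn2d, an inhibitor of the G1 kinases, had 239.6, 138 and 270.0 CPM in stage II, against 83.6, 48.6 and 76.5 CPM in stage I. Cdkn2d rose by 1.63 log2 units (SE 0.26, edgeR adjusted p = 0.000469). Mxd3, a Max partner that opposes Myc, had 26, 52.5 and 42 CPM in stage II, against 10.5, 7.41 and 9.43 CPM in stage I. Mxd3 rose by 2.14 log2 units (SE 0.42, edgeR adjusted p = 0.00366). Neither overlapped between the stages, and both calls held without any 1 library. E2f2, an activator of cycle genes in progenitors, rose 5.3-fold (edgeR adjusted p = 0.000137). Myc itself had 140.3, 78.6 and 32 CPM in stage II, against 276, 274.1 and 161 CPM in stage I (log2 fold change -1.50, SE 0.78, edgeR adjusted p = 0.303), lower in every stage II library but not called.

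Genes of protein synthesis had lower values in stage II, nearly all of which missed the threshold. All 30 cytosolic ribosomal protein genes on the list had a negative log2 fold change (median -0.58, against -0.01 over all genes). Of these, 0 were called, against 1.33% of all genes called lower. Stage II was lower without overlap in 13 of the 30, against 10.8% of all genes. The summed level of the list overlapped, with 4907 to 9388 CPM in stage II and 9046 to 13173 CPM in stage I. All 26 ribosome biogenesis genes were negative (median -0.69). Stage II was lower without overlap in 13 of them and 1 was called, against 10.8% and 1.33% of all genes. That member was Mybbp1a, a nucleolar Myb-binding protein, with 62.7, 96.6 and 35.2 CPM in stage II, against 133, 172 and 139 CPM in stage I (log2 fold change -1.19, edgeR adjusted p = 0.0484), which lost the call in each fit without 1 library other than stage II library 2 (adjusted p up to 0.194). Ftsj3, Nob1 and Ppan are on neither list and were chosen after their values were seen, so they give no count over a group. Ftsj3, a methyltransferase of ribosomal RNA maturation, had 46.6, 44.2 and 41.5 CPM in stage II, against 117, 106 and 139 CPM in stage I. Ftsj3 fell by 1.45 log2 units (SE 0.27, edgeR adjusted p = 0.00249). Nob1, the nuclease that finishes small-subunit RNA, had 25.5, 33 and 28.8 CPM in stage II, against 59.3, 66 and 70.6 CPM in stage I. Nob1 fell by 1.17 log2 units (SE 0.27, edgeR adjusted p = 0.014). Both were lower in every stage II library and robust to leaving out a library. Ppan, a factor of large-subunit assembly, had 111, 114 and 53.6 CPM in stage II, against 211, 172 and 243 CPM in stage I (log2 fold change -1.16, edgeR adjusted p = 0.0114), and lost its call without stage II library 3 alone (adjusted p = 0.0604).

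Among the called genes whose stages did not overlap and that averaged at least 10 CPM in a stage, the largest falls were those of Slc7a4 and Gstt3. Slc7a4, of the cationic amino acid transporter family (chr16:17572018-17583214, minus strand, GRCm38), had 0, 0 and 0 CPM in stage II, against 14.6, 21.2 and 15.3 CPM in stage I. It had 0 counts over stage II and 600 over stage I, at least 172-fold lower by the floor of 3 counts (edgeR adjusted p = 0.00074). Gstt3, a theta-class glutathione transferase (chr10:75774115-75781414, minus strand, GRCm38), had 0.11, 0 and 0.088 CPM in stage II, against 9.83, 25.1 and 10 CPM in stage I. It had 2 counts over stage II and 528 over stage I, a 227-fold ratio with a 95% counting interval of 62.6 to 1881 (adjusted p = 0.000862). The next 13, all at an edgeR adjusted p of 0.0493 or less, are given with their log2 fold changes. They were H2-Ob, a class II chaperone chain (-5.32), Firre, a nuclear long non-coding RNA (-3.64), Taf4b, a subunit of the general factor TFIID (-2.88), Spns2, a sphingosine phosphate transporter (-2.45), and Serpina3g, a protease inhibitor (-2.41). Then came Slc38a7, an amino acid transporter (-2.37), Sirt5, a mitochondrial deacylase (-2.27), Abca2, a lipid transporter (-2.19), and Rec8, a meiotic cohesin subunit (-2.19). The last were Atmin, a cofactor of the kinase ATM (-2.12), Bsn, a synaptic scaffold (-2.07), Rcc1l, a mitochondrial exchange factor (-2.03), and Fgf3, a fibroblast growth factor (-1.97). Atmin had 1.76, 10.5 and 7.57 CPM in stage II, against 28.8, 31 and 26.7 CPM in stage I. It was the only one of these 13 called in each fit without 1 library. The highest adjusted p of the other 12 in those fits ranged from 0.0607 in Slc38a7, without stage II library 3, to 0.156 in Serpina3g, also without stage II library 3. In 64 of the 649 called genes 1 stage had no count at all.

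At higher levels, Hdc, the histidine decarboxylase that makes histamine, had 746, 734 and 419 CPM in stage II, against 1189, 1256 and 935 CPM in stage I. Hdc fell by 0.83 log2 units (SE 0.24, edgeR adjusted p = 0.0482). Stage II was lower without overlap, lowest in library 3, but the call was lost without stage I library 1 or 2 or stage II library 3 (adjusted p = 0.14, 0.165 and 0.208). Frat2, which binds the kinase GSK-3, had 55.6, 67.7 and 52.1 CPM in stage II, against 149, 170.5 and 146 CPM in stage I (log2 fold change -1.41, SE 0.22, edgeR adjusted p = 0.000385) and kept its call without any 1 library; it was chosen after its values were seen. Hdc is on the list of basophil and mast cell markers. Of 11 tested, 1 was called higher (Cd200r3, an antigen of the sort, 3.95) and 1 lower, against 3.76% and 1.33% of all genes. The summed level of that list was 1513 to 3789 CPM in stage II and 2398 to 3433 CPM in stage I, and Mcpt4, Tpsb2, Tpsab1 and Cma1 had no count in the 6 libraries.

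Monocyte and macrophage markers were called higher in 10 of 20 and lower in none, against 3.76% and 1.33% of all genes, with a median of 2.39. They held Csf1r, Ccr2, Ctss, Irf8 and Cd68, described above, and Ly6c2, a surface protein of inflammatory monocytes with close copies, which had 1097, 1153 and 799 CPM in stage II, against 509, 443.1 and 372 CPM in stage I. Ly6c2 rose by 1.20 log2 units (SE 0.20, edgeR adjusted p = 0.00077). Of the 10, 4 remained without stage I library 1, and 5 without stage I library 2 or stage II library 3. Neutrophil markers were positive in 16 of 17 and apart between the stages in 15, against 10.8% of all genes, with a median of 1.89. Of these 2 were called higher, against 3.76% of all genes: Padi4, an enzyme that citrullinates histones (2.02), and Retnlg, a resistin-like secreted protein. Retnlg had 168, 369 and 641 CPM in stage II, against 21.3, 35.1 and 82.1 CPM in stage I. Retnlg rose by 3.09 log2 units (SE 0.52, edgeR adjusted p = 0.00101). Ngp, a neutrophil granule protein, had 8833, 5774 and 9239 CPM in stage II, against 2653, 707 and 3878 CPM in stage I. Ngp differed by 1.72 log2 units (SE 0.61, edgeR adjusted p = 0.113). All stage II libraries were above stage I for both. With the replicate block 13 members were called. Ly6g, the neutrophil antigen by which cells were depleted, had 32.1, 21.2 and 37.2 CPM in stage II, against 8.24, 1.62 and 9.13 CPM in stage I. Ly6g differed by 2.25 log2 units (SE 0.82, edgeR adjusted p = 0.119). Dendritic cell markers were called higher in 2 of 12, against 3.76% of all genes. Of these 2, 0 remained without stage I library 1 or 2 or stage II library 3, and 1 without stage II library 2. The erythroid, B cell, T and NK cell and stromal lists had 0 called higher of 9, 10, 5 and 4 members tested. Against 3.76% of all genes, 0 of so few members is no result about these lists. Their median log2 fold changes were positive, at 1.19, 1.61, 1.096 and 0.73 in that order. The summed levels of the stages overlapped in each list, and 4 globin genes had no count in the 6 libraries.

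The same step was fitted under IL-33. Of the 12743 genes 12 (0.0942%) passed in the edgeR fit, 10 (0.0785%) higher in stage II and 2 (0.0157%) lower, with 835 at an unadjusted p under 0.05. DESeq2 called 1190 genes in steady state and 37 under IL-33, while limma-voom had the opposite order, 502 in steady state and 917 under IL-33. The 10 that rose under IL-33 were Adam19, Alox15, Ccr1, Cyp4f18, Hacd4, Ipcef1, Itgb7, Padi4, Pirb and Sh3bp5. All 10 were also called higher in steady state. The 2 comparisons share no library, but 1 fit set the spread of each gene for both, so their calls are not independent. Ipcef1 lost its call in steady state without stage II library 3 (adjusted p = 0.0762). Cyp4f18, which inactivates leukotriene B4, had 534, 411 and 1048 CPM in stage II, against 131, 115 and 129.9 CPM in stage I. Cyp4f18 rose by 2.41 log2 units (SE 0.25, edgeR adjusted p = 4.13e-06). It had 567, 699 and 677 CPM in stage II under IL-33, against 260.4, 263 and 277 CPM in stage I under IL-33 (log2 fold change 1.28, SE 0.24, edgeR adjusted p = 0.0302). Alox15 had 1838, 1742 and 1812 CPM in stage II under IL-33, against 541, 351 and 525 CPM in stage I under IL-33 (log2 fold change 1.93, SE 0.28, edgeR adjusted p = 0.00371). Each stage II library was above each stage I library for both genes in both conditions. The 2 genes that fell under IL-33 were Prtn3, a primary granule protease (-2.43), and Vamp5, a vesicle protein (-1.67), which had log2 fold changes of 0.69 and 0.49 in steady state (adjusted p = 0.398 and 0.426). Over the 479 genes called higher in steady state, 88.3% had a positive log2 fold change under IL-33, against 51.6% of all genes, with medians of 1.47 in steady state and 0.47 under IL-33. Over the 170 called lower 66.5% were negative under IL-33, against 48.0% of all genes, with medians of -2.32 and -0.31. Genes chosen in 1 condition tend to have smaller medians in another, and these medians were not tested against each other.

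The difference of the step, steady state minus IL-33, was tested directly. At an adjusted p under 0.05 edgeR called 0 of the 12743 genes (0%), with 958 at an unadjusted p under 0.05, while DESeq2 called 114 and limma-voom 32; with the replicate block edgeR called 47. The smallest edgeR adjusted p was 0.0676, shared by 10 genes. Csf1r was among them, with 18.1, 23.6 and 31.9 CPM in stage II under IL-33, against 16, 6.98 and 11.9 CPM in stage I under IL-33, and a difference of 2.24, SE 0.44, edgeR adjusted p = 0.0676 on the log2 scale. Trem3, an activating receptor of myeloid cells, had 272, 279.7 and 223 CPM in stage II, against 80.1, 58.7 and 108 CPM in stage I in steady state. It had 22.4, 11.3 and 13.2 CPM in stage II under IL-33, against 57.3, 30.6 and 25.3 CPM in stage I under IL-33, so that its log2 fold changes were 1.65 and -1.27 and their difference 2.92, SE 0.59, edgeR adjusted p = 0.0676. Gstt3 had 5.87, 10.2 and 6.21 CPM in stage II under IL-33, against 6.82, 5.76 and 9.99 CPM in stage I under IL-33, a difference of -7.58, SE 1.52, edgeR adjusted p = 0.0676. None of these differences passed the threshold. Neutrophil markers had a median of 1.89 in steady state, against -0.90 under IL-33; the list was not tested.

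**Figure D4:**
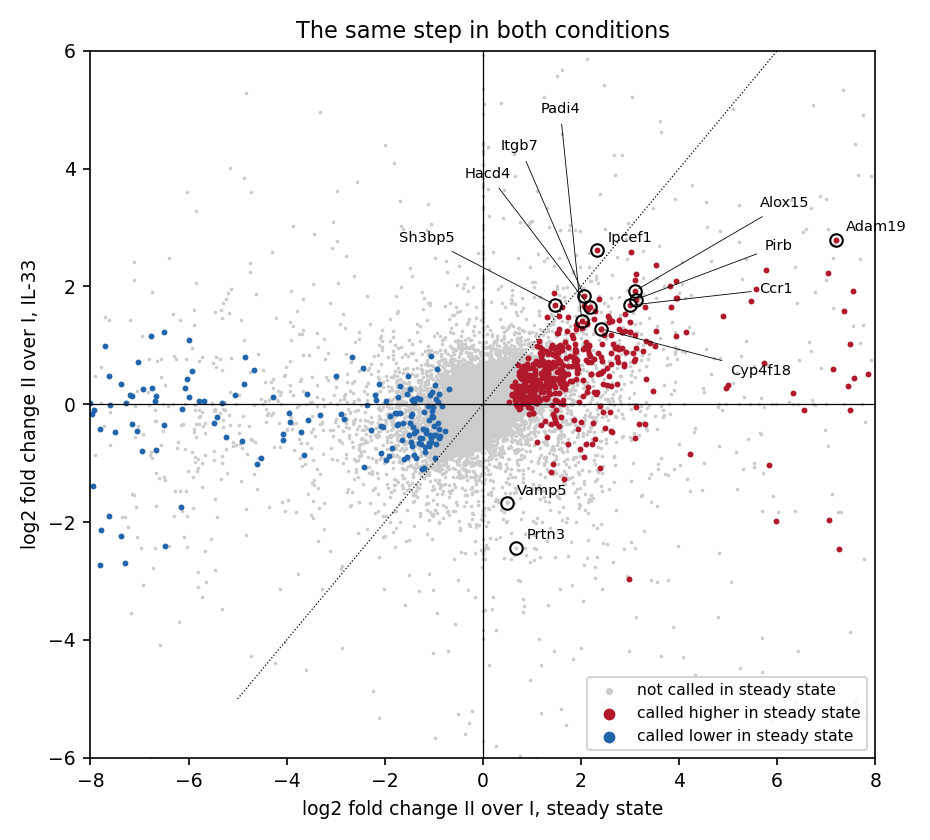
Log2 fold change of stage II over stage I in steady state (horizontal) and under IL-33 (vertical), 1 point per gene tested; red and blue points were called higher and lower in steady state, rings mark the 12 genes called under IL-33, the dotted line marks equal values, and 46 genes lie outside the axes. Most red points lie above 0 on the vertical axis and below the dotted line, and the blue points spread around 0 on the vertical axis.

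Over the 4 stages, the genes of the first step took different courses, here given as mean ± SD of 3 libraries in CPM for stages I, II, III and IV. Csf1r had a higher mean at each stage (8.2 ± 2.95, 82 ± 30.8, 256 ± 33.7 and 306 ± 76.7), as did Id2 (42.6 ± 14.8, 261 ± 39.9, 1089.8 ± 194 and 1378 ± 231) and Adam19 (0.0749 ± 0.13, 13.9 ± 6.24, 236 ± 103 and 333 ± 40.9). Alox15 peaked at stage III (259 ± 26.8, 2236 ± 775, 8974 ± 2296 and 2391 ± 1077), as did Ccr1 (20.7 ± 7.03, 166 ± 45.7, 579 ± 212 and 215 ± 78.5). Irf8 was highest at stage II (25 ± 6.23, 98.6 ± 36.9, 34.7 ± 17.1 and 47.1 ± 15.3), where Ms4a4a was too (1.43 ± 0.37, 21.8 ± 12.6, 11.5 ± 6.92 and 7.33 ± 4.92). The SDs of Ms4a4a at stages II and III overlap. Ccnb2 also had its highest mean at stage II (129 ± 32.6, 292 ± 68, 92.6 ± 33.2 and 35.2 ± 7.05), and Mki67 likewise (175 ± 41.8, 359 ± 140.0, 60.5 ± 17.7 and 84.3 ± 31.1). Against stage II, stage III was lower for Irf8 (edgeR adjusted p = 0.0263), for Ccnb2 (adjusted p = 2.33e-05) and for Mki67 (adjusted p = 9.11e-07). Hdc had a lower mean at each stage (1127 ± 169, 633 ± 185, 497 ± 97.1 and 111 ± 19), and so did Itga2b (568 ± 92.5, 296 ± 92.8, 185 ± 28 and 35.5 ± 2.51). Stage III and stage II share the stage II libraries with the first step, so a high stage II value by chance raises one difference and lowers the other.

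**Figure D5:**
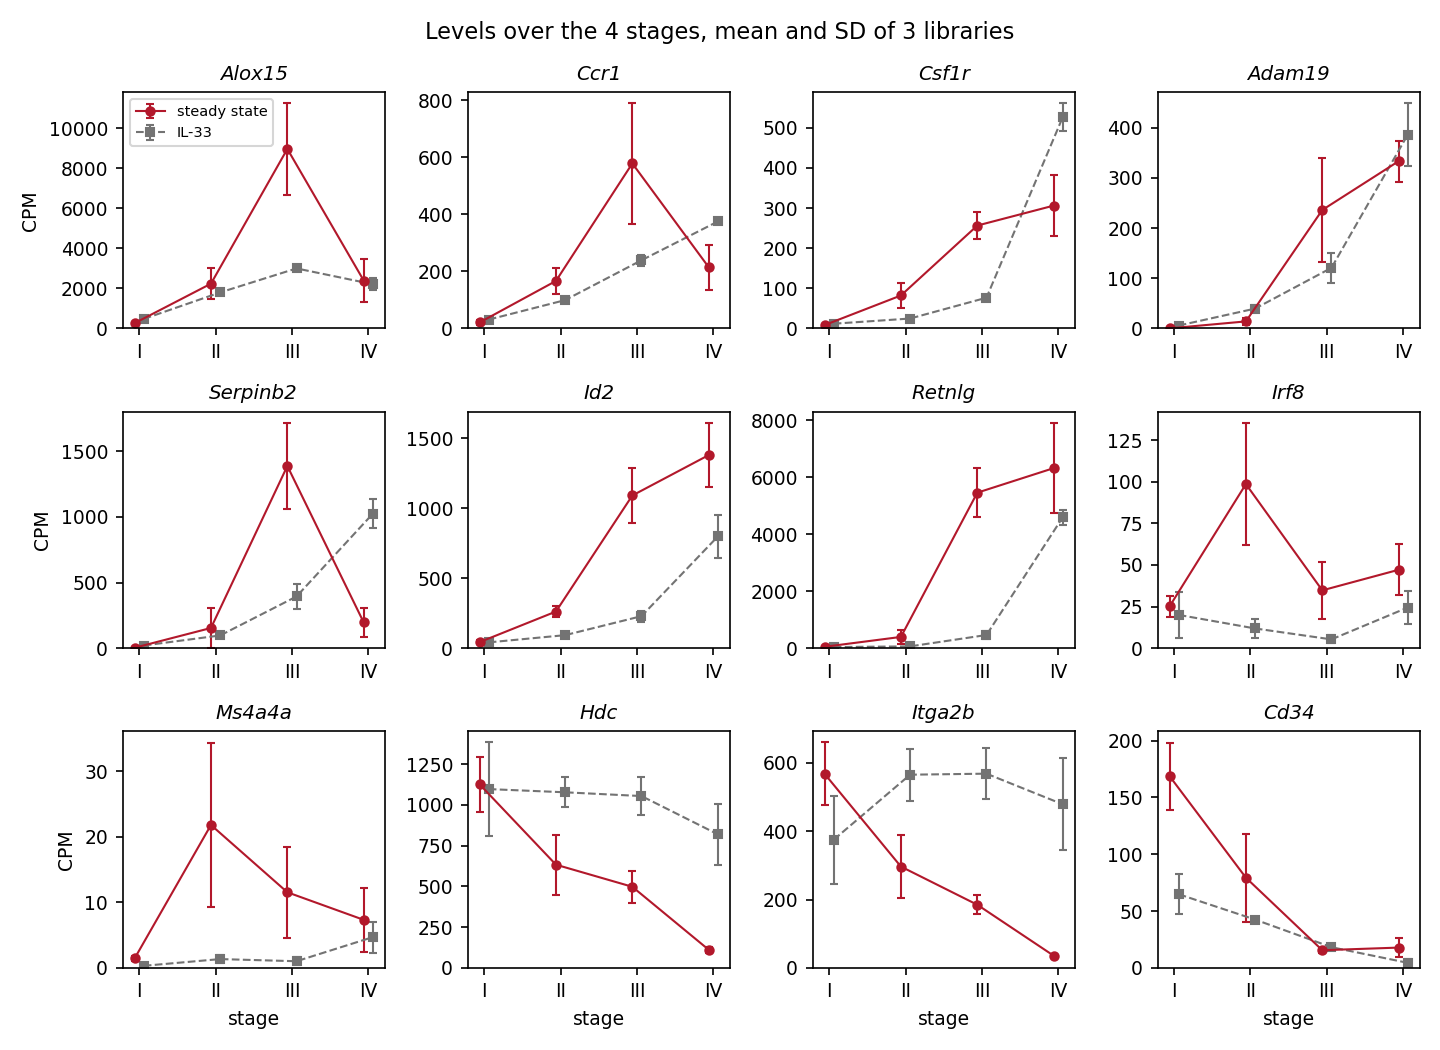
Mean level in CPM with 1 SD of 3 libraries over stages I to IV for 12 genes, steady state drawn as solid red lines and IL-33 as dashed grey lines. Alox15, Ccr1 and Serpinb2 are highest at stage III in steady state, Irf8 and Ms4a4a at stage II, and Hdc, Itga2b and Cd34 are highest at stage I.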

How the data were processed

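The authors' deposited files give, per library, a whole-number count of reads for each of 24982 gene symbols, with no normalization; 2 entries that name no gene (no-feature reads, 17.8% to 22.1% of counted reads in the 6 libraries, and ambiguous reads) were left out of library sizes and tests. Per the labels' protocols, cDNA was made with SMART-Seq v4 and libraries with Nextera XT, which does not mark the strand, so overlapping and antisense partners cannot be told apart. Per the submitters' processing notes, STAR 2.6.1a, DESeq2 and mm10 were used; the read counter was not given in the sources used here. Genomic positions are from GENCODE M21, matched by symbol for 24490 of 24982.

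Counts were fitted in R 4.3.3 with edgeR 4.0.16: filterByExpr (12743 genes left), TMM, 8 groups over 24 libraries, a robust quasi-likelihood test and Benjamini-Hochberg adjustment at 0.05. Pooling the spread over 8 groups sets the precision, with a common biological coefficient of variation of 0.454. Replicates within stage II and within stage I of steady state differed by a chi-square of 34.8 to 106 per degree of freedom. That is far above counting error, so none of these libraries copied another of its stage. Other pairs of libraries were not compared in this way. A standard error (SE) is the log2 fold change over the square root of F. Ratios with a stage at 0 use a floor of 3 counts over the stage; with 1 to 3 counts an exact 95% interval of counting error is given. The script was tested on simulated data. The design text calls the triplicates biological. Same-numbered libraries of the 2 stages deviated together (correlations 0.18, 0.12 and 0.30, each above the bar of 0.1), so the number may pair them. Libraries of unlike number had correlations of -0.19 to 0.03. These are no separate evidence of pairing, since the deviations within a stage sum to 0 for each gene. This pairing comes from the data, as the labels give only the numbers. The main fit has no term for the number, and the replicate block is the setting that has one. DESeq2 1.42.0, limma 3.58.1, other scalings, filters and left-out libraries were the alternatives. Figures were drawn with matplotlib 3.10.9.

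Comparison, members, gene lists (47) and alternatives were chosen with earlier results of these data known. Named genes are the 15 largest rises and falls among called genes with stages apart and at least 10 CPM in a stage, passing over predicted genes and Riken clones, called list members with up to 3 more per list, a panel of lineage genes and 5 genes per direction from the difference between conditions. Anxa2, Lgals3, Tgfbi, Jun, Atf3, Ddx3y, Ftsj3, Nob1, Ppan and Frat2 were chosen after their values were seen. Some called list members are not reported here.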

Additional observations from a re-analysis of the deposited data

How the results depend on the processing

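Of 6199 values of named genes in 19 other settings, 5156 kept their side of the threshold, 835 no longer passed and 208 newly passed. Of these values, 0 changed direction where the gene was called in the main fit or in that setting. Where a gene was called in neither, its direction could change, as in Mpo, from -0.64 to 0.35 log2 units without 1 library. Another 71 values could not be given, as a filter removed the gene or a called gene had no adjusted p in that setting. The main counts were 649 genes (479 higher, 170 lower), 12 under IL-33, 0 for the difference between conditions and 123 list members. DESeq2 called 1190 genes (824 higher, 366 lower), 37 under IL-33 and 114 for the difference; limma-voom called 502 genes (390 higher, 112 lower), 917 under IL-33 and 32 for the difference. The 6 libraries alone gave 25 genes (23 higher, 2 lower) and 12 list members, and the 12 steady state libraries 154 (150 higher, 4 lower) and 50. With the replicate block, 1088 genes were called (777 higher, 311 lower), 26 under IL-33, 47 for the difference and 207 list members; 631 of the 649 genes were among them. Library totals gave 294 higher. The no-feature share as a covariate gave 4 under IL-33, and no filter on low counts 1 for the difference. Without the 4 steady state libraries numbered 3 the counts were 535 genes (365 of the 649 among them), 41 under IL-33 and 31 for the difference. Without 1 of the 6 libraries, they ranged from 280 to 688 genes (221 to 489 higher, 59 to 199 lower), 10 to 19 under IL-33, 0 to 10 for the difference and 60 to 127 list members. The smaller fits have fewer libraries to estimate the spread; the cause of the other shifts was not tested. List medians of granule proteins, lineage markers, primary granule genes, NF-kB genes, replication genes, heme genes and megakaryocyte markers changed sign with library totals. Depth limits genes with few counts: 81 of the 649 have at most 3 counts in a stage.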
